A study of Mus musculus with 18 samples.

Results

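The genes described here are those lower in both *Nprl2* KO and *Tsc2* KO mouse embryonic stem cells (mESCs) than in wild-type mESCs. They were chosen by their level in TPM, a read count scaled for transcript length and library total, in 6 libraries of sorted GFP+ cells. A gene was taken when its wild-type mean was 3 TPM or more, when both KO means were at or under the wild-type mean divided by 1.3, and when all 4 KO libraries were under both wild-type libraries. *Meg3*, *Rian*, *Mirg*, *Lin28a* and genes named Rpl or Rps were left out by name. Of 24369 genes in the table, 10768 had a wild-type mean of 3 TPM or more, and 295 of these met the rule. Without wild-type library 2 the same rule would take 503 genes, 250 of them among the 295. The levels in wild-type and KO cells therefore chose the genes, and they are given here as a description with no test.

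All libraries were made from E14 mESCs of the genotype Rex1GFPd2-Cas9, which express Cas9 and a destabilized GFP from the *Rex1* locus (listed as *Zfp42*). The 6 GFP+ libraries were 2 each from wild-type, *Nprl2*-/- and *Tsc2*-/- cells, which were kept on feeder cells in serum with LIF and sorted for the reporter before RNA was isolated. Each KO was made with Cas9 and paired guide RNAs that remove an exon, and whether the 2 libraries of a genotype came from separate clones or cultures is not given in the sources used here, so p-values measure the spread between these libraries, which may be technical. The other 12 libraries were a differentiation time course of Rex1GFPd2-Cas9 cells with both genes intact, with 3 libraries each from day 0, before differentiation, and from days 1, 2 and 3.

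Nprl2 is a subunit of Gator1, a complex at the lysosome that switches off mTORC1 when amino acids are scarce. Tsc2 is the GTPase-activating subunit of the complex that switches off Rheb, and through it mTORC1, when growth factors are scarce. mTORC1 is a kinase complex that raises protein synthesis and restrains autophagy. *Rex1* is expressed in naive pluripotent cells and is lost as they leave that state, so its reporter follows the exit from naive pluripotency.

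The total of estimated counts per library was 8610357 to 13780861 in GFP+ cells and 12503005 to 15305054 in the time course. *Nprl2* was at 16.1 and 16.99 TPM in the wild-type libraries and at 8.09 and 8.65 in *Nprl2* KO. *Tsc2* was at 44.98 and 44.9 TPM in wild-type and at 18.8 and 20.3 in *Tsc2* KO. Both values are for whole transcripts, of which a KO removes only a part. The pluripotency factor *Pou5f1* was at 1591 to 1905 TPM in the 6 GFP+ libraries. A list of 30 feeder fibroblast markers, of which 28 were in the table, summed to 1263 and 1063 TPM in wild-type, with 1069 and 1119 for *Nprl2* KO and 1511 and 1004 for *Tsc2* KO. None of its genes was a member, and of the 28 markers 4 were under 3 TPM in every GFP+ library. The collagen gene *Col1a1* was at 70.7 and 52.0 TPM in wild-type, with 54.7 and 55.4 for *Nprl2* KO and 60.3 and 15.04 for *Tsc2* KO, whereas *Lum* and *Dcn* were at 0 to 0.171 and 0.130 to 1.10 TPM. *Tsc2* KO library 2 was thus the lowest for *Col1a1*, as it was for most of the 28 markers, among them *Col1a2*, *Postn* and *Thy1*. *Acta2* was at 13.4 TPM in this library, against 53.6 to 86.4 in the other GFP+ libraries. Others went the other way, with *Fn1* and *Sparc* at 300 and 350 TPM in it, above both wild-type libraries. All 4 KO libraries were under both wild-type libraries for 1 marker, *Prrx1*, and above them for 0. The part of feeder RNA in the results was not tested. In bulk libraries such as these, fewer cells of a type and less RNA per cell cannot be told apart.

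The 295 genes were mostly of moderate abundance. Their wild-type means ran from 3.01 to 2782 TPM with a median of 12.9, 14 genes were at 100 TPM or more, and 122 were under 10. By annotation 260 were protein-coding, 14 were long noncoding RNAs, 8 were microRNA genes, 5 were transcribed pseudogenes, 3 were snoRNAs, 1 was an rRNA, 1 was an snRNA, and 3 had no type given. The median ratio to wild-type was 0.654 for *Nprl2* KO (quartiles 0.561 and 0.715) and 0.608 for *Tsc2* KO (quartiles 0.494 and 0.689), and over all genes at 3 TPM or more it was 0.973 and 1.02. The mean was lower in *Tsc2* KO than in *Nprl2* KO for 187 of the 295. Both ratios were 0.5 or less for 22 genes. A mirrored rule, which asks for higher levels in both KOs, found 234 genes. It set the floor of 3 TPM on both KO means in place of wild-type and left out no gene by name.

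Just inside the threshold on the ratio were *Cbx5* with a weaker ratio of 0.769, *Prcp* with 0.769 and *Gm2026* with 0.768. Just outside it were *Pdk1* with 0.770, *Tarsl2* with 0.771 and *4932438A13Rik* with 0.771. Just inside the threshold on level were *Mirlet7f-1* with a wild-type mean of 3.01 TPM, *Csrnp3* with 3.02 and *Adamts9* with 3.14. Just outside it were *Tmem59l* with 2.99, *Col6a5* with 2.97 and *Snord11* with 2.96.

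**Figure D1:**
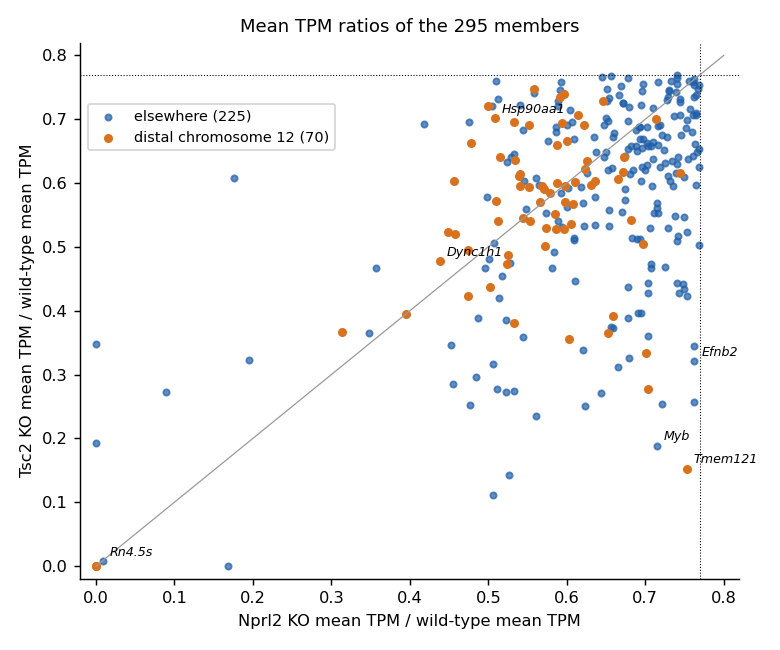
Ratio of mean TPM to wild-type in *Nprl2* KO (x axis) and in *Tsc2* KO (y axis), with 1 point for each of the 295 genes, in orange for the 70 on distal chromosome 12 and in blue for the others. The 70 orange points gather around the medians 0.576 and 0.588, and points under the diagonal are lower in *Tsc2* KO than in *Nprl2* KO.

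The rule did not use position. Chromosome 12 held 76 of the 295 genes, which was 20% of its 380 genes at 3 TPM or more. The shares on the other autosomes and the X chromosome lay between 0.840% on chromosome 19 and 3.90% on X, and none of the 4 Y genes was a member. Over all chromosomes together the share was 2.74%.

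**Figure D2:**
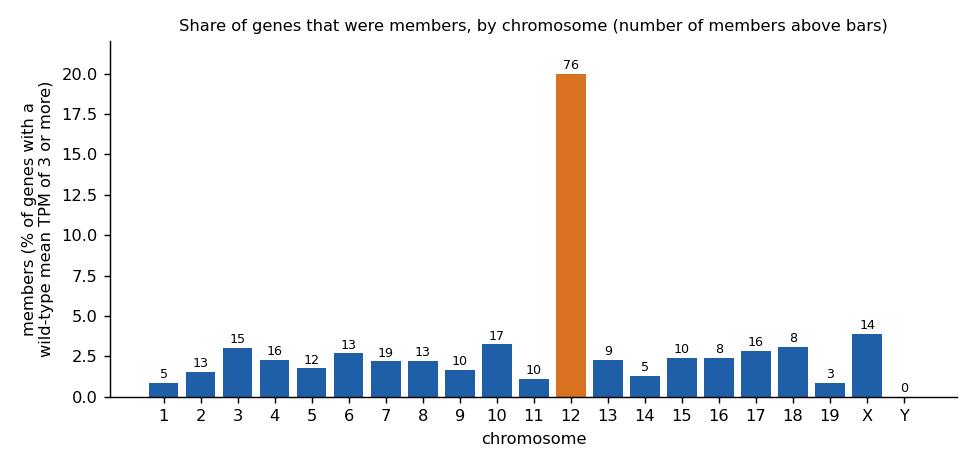
Share of genes with a wild-type mean of 3 TPM or more that were members (y axis, percent) for each chromosome (x axis), with the number of members above each bar. The bar of chromosome 12 reaches 20% and the next highest, that of X, reaches 3.90%.

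Within chromosome 12 the members formed a block that reached the last expressed gene. From *Spata7* to *Cdca7l* (chr12:98628129-117878712, GRCm38), 70 of 93 genes at 3 TPM or more were members, which was 75.3%. In the part of the chromosome before *Spata7*, 6 of 287 were members, which was 2.09%, and outside the block as a whole 222 of 10616 were, again 2.09%. The limits of the block were drawn after the values were seen. In the block the median ratio was 0.586 for *Nprl2* KO and 0.595 for *Tsc2* KO, whereas before it these medians were 0.982 and 1.01. Both KO means were under the wild-type mean for 88 of the 93 genes, against 76 of 287 before the block. Among the last 20 genes before *Spata7*, 4 had both means under wild-type, and the medians were 0.994 and 1.03. The limit was placed by the values, so they cannot show how sharp the change of level was. The gene next to *Spata7*, *Galc*, a lysosomal galactosidase, had ratios of 0.411 and 0.851. No gene of the mirrored rule lay in the block.

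Only RNA was measured and genomic DNA was not analysed here, so for the genes of the block fewer DNA copies of the segment and less RNA per copy cannot be told apart.

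**Figure D3:**
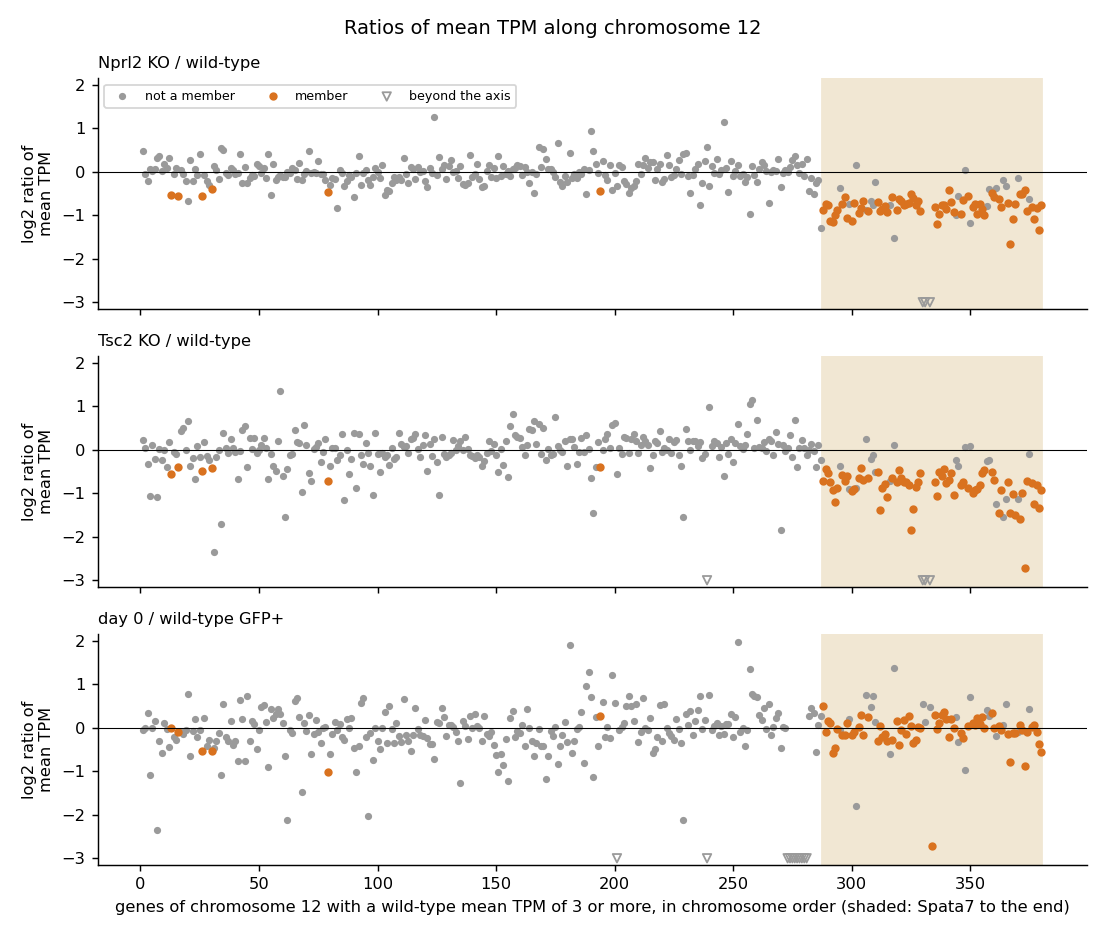
Log2 ratio of mean TPM to wild-type (y axis) for *Nprl2* KO, *Tsc2* KO and day 0 in 3 panels, for the genes of chromosome 12 at 3 TPM or more in chromosome order (x axis), with members in orange and other genes in grey, open triangles beyond the axis, the block shaded, and genes at 0 not drawn. In both KO panels the shaded genes have medians of 0.586 and 0.595 as ratios, against 0.982 and 1.01 for the genes before them. Single genes overlap between the parts. In the day 0 panel the shaded genes have a median ratio of 1.00.

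Of the 23 genes in the block that were not members, 4 were left out by name. These were *Meg3*, *Rian* and *Mirg*, the maternally expressed noncoding RNAs of the Dlk1-Dio3 imprinted domain, and *Rps6ka5*, a kinase whose name begins with Rps. *Meg3* was at 91.1 and 92.8 TPM in wild-type, with 7.93 and 6.95 for *Nprl2* KO and 9.82 and 2.94 for *Tsc2* KO, so its ratios of 0.0809 and 0.0694 were far below the median of the block. Among the other 19, *Ckb*, a creatine kinase, had ratios of 0.444 and 1.07, and *Tcl1*, a coactivator of Akt, had 0.349 and 1.09. *Akt1*, the kinase itself, had 0.775 and 0.422, and *Jag2*, a Notch ligand, had 0.881 and 0.344. For these 4 genes, picked after their values were seen, the levels of the KOs differed.

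The most abundant member of the block, and of all 295 genes, was *Hsp90aa1*, the inducible Hsp90 chaperone. It was at 2912 and 2652 TPM in wild-type, with 1453 and 1375 for *Nprl2* KO and 1992 and 1915 for *Tsc2* KO. All KO values lay under both wild-type values, with the *Nprl2* KO libraries lowest. *Eif5*, a translation initiation factor that acts on the start codon complex, was at 198 and 187 TPM in wild-type, with 115 and 129.6 for *Nprl2* KO and 118 and 114 for *Tsc2* KO. *Papola*, the nuclear poly(A) polymerase, was at 141 and 122 TPM in wild-type, with 80.7 and 83.8 for *Nprl2* KO and 82.2 and 84.9 for *Tsc2* KO. *Siva1*, a regulator of apoptosis, was at 157 and 149 TPM in wild-type, with 106 and 100.3 for *Nprl2* KO and 98.2 and 91.3 for *Tsc2* KO. The KOs overlapped each other for *Eif5* and *Papola*, and the ratios of these 3 genes to wild-type lay between 0.604 and 0.672.

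*Dync1h1*, the heavy chain of cytoplasmic dynein (chr12:110601395-110666944), was at 60.2 and 59.5 TPM in wild-type, with 28.6 and 23.9 for *Nprl2* KO and 28.8 and 28.4 for *Tsc2* KO. Its ratios were 0.438 and 0.477, with little spread within wild-type and *Tsc2* KO and more within *Nprl2* KO. *Yy1*, a zinc-finger factor that binds promoters and enhancers, was at 97.1 and 101 TPM in wild-type, with 58.04 and 57.8 for *Nprl2* KO and 54.7 and 54.6 for *Tsc2* KO. *Dicer1*, the endonuclease that cuts microRNA precursors, was at 30.4 and 30.1 TPM in wild-type, with 16.1 and 15.6 for *Nprl2* KO and 15.1 and 13.5 for *Tsc2* KO. Its ratios were 0.524 and 0.473. *Atg2b*, a lipid transfer protein of the growing autophagosome, was at 10.5 and 11.5 TPM in wild-type, with 5.59 and 6.302 for *Nprl2* KO and 6.64 and 6.46 for *Tsc2* KO. Its neighbour *Gskip* shares 353 words of 31 bases with it (8.87% of the words of the shorter transcript set), and *Eml5* shares 919 with *Zc3h14* (11.4%), so the division of reads within these pairs is uncertain.

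The block held members of many functions. Besides those above, it included genes of RNA 3′ end formation and transcription (*Cpsf2*, *Zc3h14*, *Ccnk*, *Brf1*), a tRNA synthetase (*Wars*), DNA repair and chromosome genes (*Tdp1*, *Xrcc3*, *Ncapg2*), cytoskeletal genes (*Klc1*, *Evl*, *Inf2*) and *Ppp2r5c*, a regulatory subunit of protein phosphatase 2A. *Wars* was at 75.2 and 71.7 TPM in wild-type, with 48.8 and 43.9 for *Nprl2* KO and 43.2 and 44.6 for *Tsc2* KO. *Ppp2r5c* was at 79.6 and 79.1 TPM in wild-type, with 44.7 and 45.5 for *Nprl2* KO and 46.1 and 48.5 for *Tsc2* KO. In both genes the KO libraries lay apart from wild-type, which the rule itself required, and near each other, which it did not require.

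The *Tsc2* KO mean was under the *Nprl2* KO mean for 32 of the 70 members, and the median ratio to wild-type was 0.576 for *Nprl2* KO and 0.588 for *Tsc2* KO. The lowest ratios were those of *DQ267100*, a snoRNA gene, and *Mir3072*, a microRNA gene, both within the imprinted domain and both at 0 in all KO libraries, with few reads in wild-type. The other 6 members on chromosome 12, *Ncoa1*, *Fkbp1b*, *Ttc32*, *Fam49a*, *Prkar2b* and *Fut8*, lay before the block.

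Day 0 of the time course is a separate set of libraries with both genes intact that the rule did not use. Over all genes at 3 TPM or more, the 3 day 0 libraries were all above the 4 KO libraries for 20.4%. This was so for 172 of the 295 members (58.3%), for 66 of the 70 members in the block (94.3%) and for 106 of the other 225 (47.1%). The median ratio of day 0 to wild-type GFP+ cells was 0.980 in the block, 0.838 for the other members and 0.992 for all genes at 3 TPM or more. This ratio was between 0.8 and its inverse for 57 of the 70 (81.4%) and for 88 of the other 225 (39.1%), against 62.3% of all genes at this level. For 25 members, none of them in the block, the day 0 libraries were all under the 4 KO libraries, which was 8.47% of the members against 21.4% of all genes at this level. Day 0 cells also differed from wild-type GFP+ cells in markers of state. A list of naive pluripotency genes summed to 4030 to 4286 TPM on day 0, against 2202 to 2228 in wild-type GFP+ cells. A list for the formative state, which follows the naive one, summed to 666 to 753 TPM, against 987 to 1157. The medium of the day 0 cells is not given in the sources used here. The low KO values entered the rule, and the time course is a separate set of libraries. Library set, cell state and genotype therefore cannot be told apart in these counts.

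Examples from the block show how day 0 compared with the GFP+ cells. *Dync1h1* was at 61.4, 57.2 and 56.6 TPM in the day 0 libraries, *Yy1* at 81.9, 79.8 and 82.3, and *Dicer1* at 24.2, 23.8 and 25.7. All were above every KO library, and *Yy1* and *Dicer1* lay between the KO and the wild-type values. Members elsewhere showed both patterns. *Dusp4*, a phosphatase of ERK, was at 5.29, 4.84 and 6.79 TPM on day 0, under all its KO values, and *Dpys*, dihydropyrimidinase, was at 18.8, 19.5 and 13.2, above its wild-type values of 4.52 and 4.99.

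The other 225 members lay outside the block. To order the description, members in and outside the block were grouped by known function after their values had been seen. A group of 19 acts at the cell surface in Wnt, Notch, Hedgehog and growth factor signalling. *Fzd7*, a Wnt receptor, was at 64.6 and 53.1 TPM in wild-type, with 42.05 and 35.5 for *Nprl2* KO and 41.4 and 37.7 for *Tsc2* KO. *Sfrp2*, a secreted modulator of Wnt, was at 15.6 and 13.6 TPM in wild-type, with 10.4 and 10.2 for *Nprl2* KO and 4.58 and 5.96 for *Tsc2* KO. *Notch2*, a Notch receptor, was at 12.7 and 12.7 TPM in wild-type, with 9.01 and 8.01 for *Nprl2* KO and 6.82 and 7.28 for *Tsc2* KO. The *Fzd7* values of the KOs overlapped, whereas those of *Sfrp2* and *Notch2* were lower in both *Tsc2* KO libraries than in both *Nprl2* KO libraries.

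*Ptch1*, the Hedgehog receptor and a target of the pathway, was at 43.8 and 44.98 TPM in wild-type, with 39.1 and 29.1 for *Nprl2* KO and 23.3 and 21.4 for *Tsc2* KO. *Efnb2*, a transmembrane ephrin ligand, was at 24.1 and 17.95 TPM in wild-type, with 17.2 and 14.8 for *Nprl2* KO and 6.93 and 6.53 for *Tsc2* KO. *Cntfr*, the ciliary neurotrophic factor receptor that signals with gp130, was at 13.3 and 7.06 TPM in wild-type, with 7.04 and 3.18 for *Nprl2* KO and 5.01 and 4.82 for *Tsc2* KO. The *Efnb2* libraries did not overlap between genotypes and were lowest in *Tsc2* KO, and the *Cntfr* libraries of wild-type and of *Nprl2* KO each differed by more than 1.5-fold between replicates.

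The members that act in Ras, ERK and PI3-kinase signalling numbered 8. *Nras*, a Ras GTPase, was at 78.3 and 86.4 TPM in wild-type, with 58.2 and 63.8 for *Nprl2* KO and 64.4 and 61.5 for *Tsc2* KO. *Braf*, the kinase that Ras activates, was at 22.1 and 17.03 TPM in wild-type, with 15.6 and 12.2 for *Nprl2* KO and 13.4 and 12.6 for *Tsc2* KO. *Dusp4*, which acts on the last kinase of that chain, was at 25.9 and 24.4 TPM in wild-type, with 15.99 and 15.1 for *Nprl2* KO and 17.5 and 12.3 for *Tsc2* KO. All KO values of these 3 genes overlapped between genotypes. *Spred1*, an inhibitor between Ras and Raf, was at 47.7 and 44.9 TPM in wild-type, with 25.1 and 24.2 for *Nprl2* KO and 33.1 and 26.7 for *Tsc2* KO. *Pik3r1*, the regulatory subunit p85α of PI3-kinase, was at 5.53 and 6.65 TPM in wild-type, with 3.44 and 4.19 for *Nprl2* KO and 3.25 and 4.26 for *Tsc2* KO. *Foxo1*, a forkhead factor that Akt keeps out of the nucleus, was at 20.2 and 19.7 TPM in wild-type, with 15.9 and 14.7 for *Nprl2* KO and 12.7 and 13.4 for *Tsc2* KO. The *Spred1* values were lowest in *Nprl2* KO and those of *Foxo1* in *Tsc2* KO.

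Chromatin and transcription factors made up 24 members, 3 of them in the block. *Tet1*, which oxidizes 5-methylcytosine, was at 76.3 and 61.95 TPM in wild-type, with 55.3 and 42.8 for *Nprl2* KO and 47.9 and 40.2 for *Tsc2* KO. *Cbx5*, the heterochromatin protein HP1α, was at 124 and 120.0 TPM in wild-type, with 92.04 and 95.5 for *Nprl2* KO and 78.8 and 73.6 for *Tsc2* KO. *H2afy2*, the histone variant macroH2A2, was at 31.9 and 34.5 TPM in wild-type, with 15.97 and 18.7 for *Nprl2* KO and 13.4 and 12.2 for *Tsc2* KO. *H2afy2* had the lowest ratios of these, 0.522 and 0.385. *Phf19*, a Polycomb accessory protein, was at 4.96 and 4.24 TPM in wild-type, with 2.82 and 1.57 for *Nprl2* KO and 1.13 and 1.19 for *Tsc2* KO. *Myb*, a transcription factor known from blood progenitors, was at 12.5 and 18.5 TPM in wild-type, with 10.3 and 11.9 for *Nprl2* KO and 2.56 and 3.29 for *Tsc2* KO. *Creb1*, the cAMP response factor, was at 13.2 and 14.5 TPM in wild-type, with 10.1 and 10.5 for *Nprl2* KO and 6.99 and 7.38 for *Tsc2* KO. In all 3 the *Tsc2* KO libraries were the lowest.

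Of the 14 members of DNA replication, repair and cell division, *Prkdc*, the catalytic subunit of the DNA-dependent protein kinase, was at 8.97 and 7.79 TPM in wild-type, with 5.498 and 4.34 for *Nprl2* KO and 6.08 and 5.32 for *Tsc2* KO. *Pola1*, the catalytic subunit of DNA polymerase α, was at 45.1 and 43.7 TPM in wild-type, with 33.4 and 32.8 for *Nprl2* KO and 33.99 and 30.5 for *Tsc2* KO. *Mki67*, the antigen Ki-67 of cycling cells, was at 60.4 and 57.9 TPM in wild-type, with 40.8 and 39.7 for *Nprl2* KO and 36.7 and 35.9 for *Tsc2* KO. Replicates of *Pola1* and *Mki67* lay within a few TPM of each other. Among 17 cytoskeletal members, *Macf1*, which links microtubules to actin, was at 48.03 and 43.95 TPM in wild-type, with 33.1 and 26.8 for *Nprl2* KO and 31.1 and 25.9 for *Tsc2* KO. *Map1b*, a microtubule-associated protein, was at 22.4 and 20.99 TPM in wild-type, with 16.3 and 14.5 for *Nprl2* KO and 14.01 and 11.9 for *Tsc2* KO. *Utrn*, utrophin, was at 35.01 and 36.1 TPM in wild-type, with 24.5 and 24.6 for *Nprl2* KO and 24.5 and 21.8 for *Tsc2* KO. Their ratios lay between 0.596 and 0.709 and the KOs overlapped for *Macf1*.

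**Figure D4:**
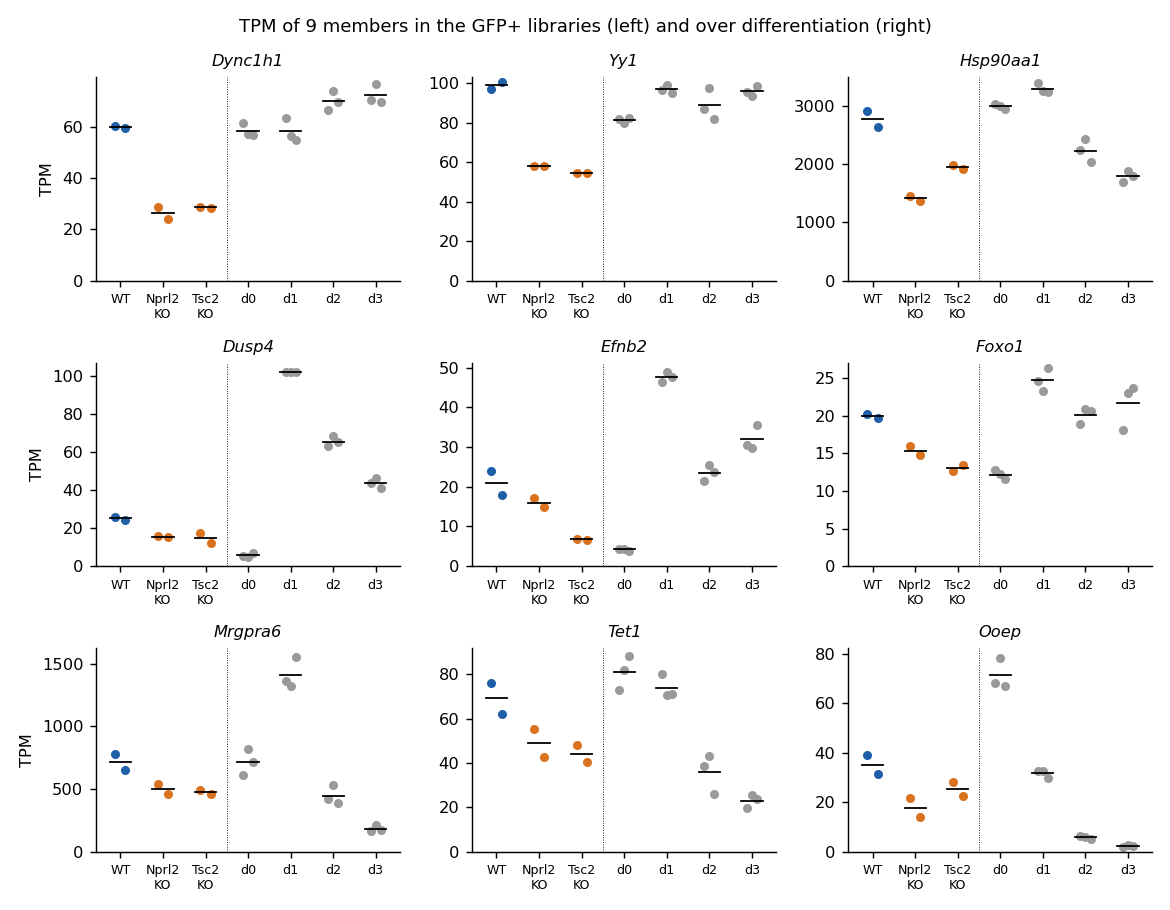
TPM (y axis) of 9 members in each GFP+ library (wild-type, *Nprl2* KO and *Tsc2* KO, left of the dotted line) and each time-course library (days 0 to 3, right of it), with a point for each library and a bar at each group mean. On day 0 *Dync1h1* sits near the wild-type level and *Yy1* between wild-type and the KOs, *Dusp4* and *Efnb2* sit below the KO level on day 0 and above it on day 1, and *Mrgpra6* peaks on day 1.

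Over differentiation the members were tested against day 0 in libraries that the rule did not use. The low-count filter kept 276 of the 295 among 14382 genes tested by edgeR. On day 1, 115 members were called higher (41.7%, against 30.1% of all genes tested) and 76 lower (27.5%, against 30.8%). By day 2 the counts were 124 higher (44.9%, against 34.2%) and 73 lower (26.4%, against 32.4%). On day 3 they were 132 higher (47.8%, against 35.0%) and 71 lower (25.7%, against 35.9%). The median log2 fold change of the members was 0.15, 0.14 and 0.21 on days 1, 2 and 3, and that of all genes tested was 0.00, 0.01 and -0.01. Calls in the upward direction were thus a larger share of the members than of all genes on each day, and calls downward a smaller one. The comparisons share the day 0 libraries, so they are not separate results. All day 0 libraries were under both wild-type GFP+ libraries for 44.7% of the 295 members, against 32.4% of genes at 3 TPM or more. The genes tested also include some under 3 TPM in wild-type. The part of either in these shares was not tested.

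**Figure D5:**
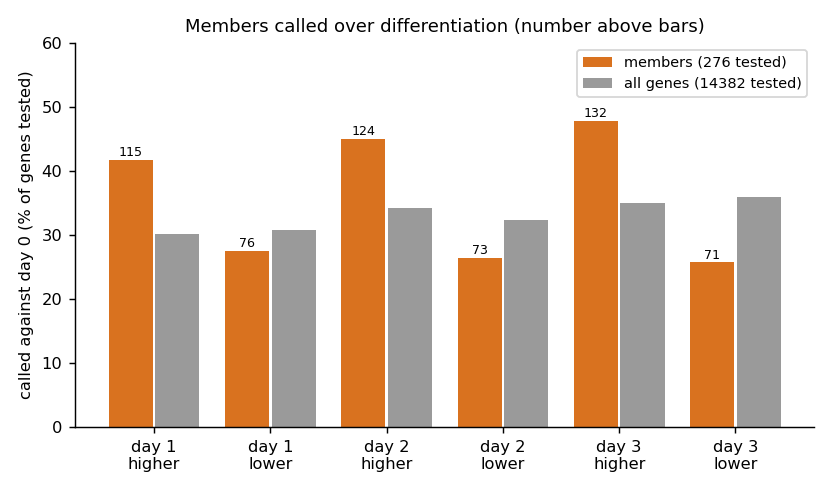
Share of genes called higher or lower than on day 0 by edgeR (y axis, percent of genes tested) on days 1, 2 and 3 (x axis), in orange for the 276 members tested, with the number called above the bar, and in grey for all 14382 genes. The orange bars for higher calls (41.7%, 44.9% and 47.8%) stand above the grey ones (30.1%, 34.2% and 35.0%), and those for lower calls stand below.

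Higher on all 3 days were 67 members (24.3%, against 15.3% of all genes tested), and lower on all 3 days were 26 (9.42%, against 16.6%). The mean TPM was highest on day 3 for 125 of the 276 members (45.3%), on day 1 for 66 (23.9%), on day 0 for 45 (16.3%) and on day 2 for 40 (14.5%). Over all genes these shares were 34.2%, 19.9%, 30.0% and 15.9% for days 3, 1, 0 and 2. The 68 tested members of the block had 31 higher calls (45.6%) and 12 lower calls (17.6%) on day 3. The other 208 had 101 (48.6%) and 59 (28.4%), against 35.0% and 35.9% of all genes tested. On day 3 the median log2 fold change was 0.15 in the block and 0.31 in the others.

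Members with large rises by day 3 included *Cend1*. This gene, which encodes a neuronal protein linked to cell-cycle exit, went from 0.294, 0.158 and 0.186 TPM on day 0 to 10.1, 12.1 and 11.8 on day 3 (log2 fold change 5.60, SE 0.27, edgeR adjusted p = 6.8e-13). Day 0 and day 3 did not overlap, and the wild-type GFP+ values of 3.94 and 4.68 lay between them. *Rapgef5*, an exchange factor for Rap GTPases in the block, went from 2.82, 2.52 and 2.31 to 25.2, 25.9 and 26.7 TPM (log2 fold change 3.26, SE 0.09, edgeR adjusted p = 2.0e-16). *Aff3*, a factor of the transcription elongation family, went from 1.66, 1.85 and 1.89 to 15.98, 18.4 and 19.3 TPM (log2 fold change 3.22, SE 0.10, edgeR adjusted p = 8.1e-16). *Sv2a*, a synaptic vesicle glycoprotein, went from 1.71, 2.19 and 1.65 to 18.9, 17.4 and 17.2 TPM (log2 fold change 3.17, SE 0.14, edgeR adjusted p = 1.1e-13). These 3 genes were already higher on day 1, with log2 fold changes of 2.40, 1.89 and 2.20.

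*Cd24a*, a GPI-anchored surface glycoprotein, fell first and rose later. Its values were 24.8, 26.7 and 20.3 TPM on day 0, 15.1, 15.8 and 13.3 on day 1, 105, 114 and 143 on day 2 and 234, 225 and 199.9 on day 3. By edgeR its log2 fold change was -0.63 on day 1 (adjusted p = 0.0011) and 3.11 on day 3 (adjusted p = 2.2e-12). *Gm3411*, a predicted gene, rose from 4.42, 5.07 and 7.34 to 48.5, 44.7 and 46.4 TPM on day 3 (log2 fold change 2.96). *Sfrp2* rose from 3.98, 6.16 and 3.85 to 29.4, 35.6 and 35.8 TPM (log2 fold change 2.74), and *Prkar2b*, a regulatory subunit of protein kinase A, from 3.15, 3.68 and 2.86 to 21.7, 20.02 and 22.1 TPM (log2 fold change 2.62). For each of these genes day 3 lay above day 0 in every library.

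*Dusp4* and *Efnb2* also rose, but with their peak on day 1. *Dusp4* was at 102, 102 and 102 TPM on day 1, 63.04, 68.2 and 65.1 on day 2 and 43.9, 46.6 and 41.2 on day 3, after 5.29, 4.84 and 6.79 on day 0. *Efnb2* was at 46.3, 48.98 and 47.6 TPM on day 1, 21.6, 25.4 and 23.6 on day 2 and 30.4, 29.9 and 35.5 on day 3, after 4.38, 4.44 and 3.79 on day 0. The day 1 log2 fold changes were 4.25 (SE 0.10, edgeR adjusted p = 4.4e-17) and 3.57 (SE 0.09, edgeR adjusted p = 1.1e-16). On day 0 both genes were under every GFP+ library, KO libraries included.

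The groups by function had been put together after the values were seen, and their counts are a description to be read against the 35.0% of all genes called higher and 35.9% called lower on day 3. In the Ras, ERK and PI3-kinase group 7 of 8 genes were called higher and 0 lower. *Braf* went from 9.69, 11.1 and 11.9 TPM on day 0 to 31.4, 30.4 and 32.9 on day 1 and 19.6, 17.9 and 19.3 on day 3 (day 3 log2 fold change 0.71). *Foxo1* went from 12.8, 12.2 and 11.6 to 24.6, 23.2 and 26.3 TPM on day 1 and 18.2, 23.05 and 23.7 on day 3 (log2 fold change 0.74). *Spred1* went from 23.9, 24.1 and 33.7 to 37.7, 35.9 and 40 TPM on day 3 (log2 fold change 0.39, SE 0.10, edgeR adjusted p = 0.0032). The exception was *Pik3r1*, which was at 6.27, 6.57 and 6.24 TPM on day 0 and 6.14, 6.04 and 6.14 on day 3, a log2 difference of -0.14 that did not pass (edgeR adjusted p = 0.14).

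In the surface signalling group 12 of 19 genes were called higher on day 3 and 2 lower, beside the same 35.0% and 35.9% of all genes. *Fzd7* was at 34.7, 34.1 and 37.1 TPM on day 0 and 81.2, 87.6 and 78.8 on day 3 (log2 fold change 1.14), and *Cntfr* was at 9.37, 10.8 and 8.23 and 48.3, 39.7 and 52.5 (log2 fold change 2.21). Those called lower were *Ptch1*, which rose on day 1 (log2 fold change 0.95) before it fell under day 0 (log2 fold change -0.25 on day 3), and *Ngfr*, the neurotrophin receptor p75. *Ngfr* went from 15.3, 10.8 and 14.9 TPM to 2.92, 3.24 and 2.898 on day 1 and 0.717, 0.719 and 2.01 on day 3 (log2 fold change -3.70, SE 0.28, edgeR adjusted p = 8.1e-09). *Gpc3*, a heparan sulfate proteoglycan encoded on X, was at 29.7, 35.9 and 26.7 TPM on day 0, above its wild-type GFP+ values of 11.4 and 10.9.

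Among chromatin and transcription factors 15 of 24 were called higher on day 3 and 4 lower, again beside 35.0% and 35.9% of all genes. *Myb* rose from 5.099, 6.25 and 4.07 to 29.6, 34.4 and 30.9 TPM (log2 fold change 2.52) and *Creb1* from 11.03, 11.3 and 9.62 to 26.2, 26.6 and 27.8 (log2 fold change 1.25). *Tet1* fell from 72.8, 81.8 and 88.3 to 19.8, 25.5 and 23.6 TPM (log2 fold change -1.91, SE 0.19, edgeR adjusted p = 9.9e-06), with no overlap between the days. *H2afy2* was at 32.9, 39.6 and 23.4 TPM on day 0, 9.55, 11.1 and 12.1 on day 1 and 83.4, 64.7 and 72.8 on day 3, so it fell (log2 fold change -1.48) and then rose above day 0 (log2 fold change 1.11). In the cytoskeletal group 10 of 17 were higher on day 3 and 4 lower, among genes of replication, repair and division 5 of 14 were higher and 3 lower, and among those of RNA processing and translation 6 of 14 were higher and 3 lower. The shares called higher in the last 2 groups were near that of all genes.

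Members with large falls by day 3 included *Clca3b*, *Ooep* and *Hsf2bp*. *Pdcl2*, which encodes a phosducin-like protein and was picked after its values had been seen, went from 8.81, 10.3 and 5.43 TPM on day 0 to 0, 0.285 and 0.154 on day 3 (log2 fold change -5.76, SE 0.54, edgeR adjusted p = 1.5e-08). *Ooep*, a subunit of the maternal complex of the oocyte cortex, went from 68.4, 78.5 and 67.01 TPM on day 0 to 32.8, 32.8 and 29.98 on day 1 and 1.84, 2.86 and 2.21 on day 3 (log2 fold change -5.03, SE 0.15, edgeR adjusted p = 6.6e-16). *Hsf2bp*, a meiotic recombination factor, went from 48.03, 49.8 and 42.8 TPM to 2.38, 2.49 and 1.94 (log2 fold change -4.45, SE 0.13, edgeR adjusted p = 4.4e-16). *Clca3b*, of a family of chloride channel accessory proteins, went from 6.45, 6.84 and 7.92 TPM to 0.201, 0.256 and 0.138 (log2 fold change -5.19, SE 0.27, edgeR adjusted p = 2.6e-12). In GFP+ cells the same genes were at lower levels in both KOs, *Ooep* at 39.03 and 31.3 TPM in wild-type, with 21.6 and 13.9 for *Nprl2* KO and 28.3 and 22.4 for *Tsc2* KO. *Naa11*, *Dpys*, *Dnah8*, *Slfn9* and *Gm14405* fell as well, with log2 fold changes of -4.12, -4.06, -3.96, -3.74 and -3.28 on day 3. *Gm14405* shares 102 words of 31 bases with *Gm2026*, another member (5.13% of the words of the shorter set), so the reads of the pair are uncertain.

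A set of 10 members, mostly noncoding RNAs and pseudogenes, was picked because their levels were highest on day 1, so their course is a description. The median log2 fold changes against day 0 were 0.93, -0.78 and -1.98 on days 1, 2 and 3. The day 1 call of *4930470H14Rik* was lost without day 1 library 3 (edgeR adjusted p = 0.050). *Mrgpra6*, annotated as a transcribed pseudogene and the most abundant of them, was at 779 and 649 TPM in wild-type, with 539 and 463 for *Nprl2* KO and 490.0 and 458 for *Tsc2* KO. In the time course it was at 609, 820.4 and 715 TPM on day 0, 1360.4, 1322 and 1555 on day 1, 420.1, 534 and 387 on day 2 and 166, 214 and 173 on day 3. Day 1 lay above and day 3 below all other days. *4930470H14Rik*, a long noncoding RNA, was at 661 and 558 TPM in wild-type, with 528 and 367 for *Nprl2* KO and 396 and 378 for *Tsc2* KO. *Kcnq1ot1*, the paternally expressed antisense RNA of the *Kcnq1* imprinted domain, was at 12.2 and 10.5 TPM in wild-type, with 8.13 and 7.55 for *Nprl2* KO and 7.87 and 7.28 for *Tsc2* KO. On day 3 the log2 fold change against day 0 was -3.41 for the former and -1.67 for the latter (edgeR adjusted p = 2.3e-07 and 1.7e-06). Whether reads of these genes come from copies elsewhere in the genome was not tested.

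Of the members in the block, *Hsp90aa1* was at 3038, 3002 and 2962 TPM on day 0 and fell to 1693, 1891 and 1807 on day 3 (log2 fold change -0.83, SE 0.06, edgeR adjusted p = 8.1e-10). *Dync1h1* rose from 61.4, 57.2 and 56.6 to 70.2, 76.6 and 69.5 TPM (log2 fold change 0.22, SE 0.07, edgeR adjusted p = 0.007), a call that was lost without day 3 library 2 (edgeR adjusted p = 0.055). *Btbd6*, a BTB-domain protein that acts with cullin 3, rose from 5.12, 5.87 and 6.67 to 18.97, 20.01 and 16.9 TPM (log2 fold change 1.57, SE 0.13, edgeR adjusted p = 2.4e-09). *Papola* and *Siva1* did not pass on day 3, with log2 differences of -0.08 and 0.12 (edgeR adjusted p = 0.28 and 0.12). The members of the block thus differed in their course during differentiation.

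*Tsc2* KO was compared directly with *Nprl2* KO. The rule caps the level of each KO and so limits the difference between them, and these counts and shares are therefore a description from which nothing is read. Of 277 members tested among 13725 genes, 4 were called higher in *Tsc2* KO (1.44%, against 17.5% of all genes tested) and 56 lower (20.2%, against 16.6%). The median log2 fold change was -0.16 for the members and -0.01 for all genes. Without *Tsc2* KO library 2 the counts were 2 higher and 30 lower.

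The members called higher in *Tsc2* KO were *Hsp90aa1*, *Atxn3*, *Ttc7b* and *Wdfy3*. *Hsp90aa1* differed by 0.39 on the log2 scale (SE 0.07, edgeR adjusted p = 6.1e-04). *Atxn3*, the deubiquitinase ataxin 3, was at 26.4 and 28.4 TPM in wild-type, with 15.04 and 15.6 for *Nprl2* KO and 19.1 and 21.9 for *Tsc2* KO (log2 fold change 0.40). *Ttc7b*, a scaffold of a phosphatidylinositol 4-kinase, was at 21.5 and 19.3 TPM in wild-type, with 10.5 and 8.98 for *Nprl2* KO and 13.1 and 13.9 for *Tsc2* KO (log2 fold change 0.40). *Wdfy3*, an adaptor of selective autophagy, was at 12.4 and 11.2 TPM in wild-type, with 7.46 and 6.52 for *Nprl2* KO and 9.01 and 8.87 for *Tsc2* KO (log2 fold change 0.27). The first 3 lie in the block and *Wdfy3* lies on chromosome 5. Without *Tsc2* KO library 2, *Atxn3*, *Ttc7b* and *Wdfy3* did not pass (edgeR adjusted p = 0.11, 0.12 and 0.099).

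Lower in *Tsc2* KO by the largest amounts were *Tmem121*, *Myb* and *Miip*. *Tmem121*, a transmembrane protein gene in the block, was at 5.74 and 6.13 TPM in wild-type, with 3.92 and 5.02 for *Nprl2* KO and 0.702 and 1.11 for *Tsc2* KO (log2 fold change -2.35, SE 0.35, edgeR adjusted p = 3.0e-04). *Myb*, whose values stand above, differed by -1.99 on the log2 scale (SE 0.20, edgeR adjusted p = 3.6e-05). *Miip*, which encodes an inhibitor of cell migration, was at 22.1 and 22.1 TPM in wild-type, with 19.3 and 14.4 for *Nprl2* KO and 5.57 and 5.78 for *Tsc2* KO (log2 fold change -1.63, SE 0.18, edgeR adjusted p = 2.9e-05). In all 3 genes the *Nprl2* KO libraries lay nearer to wild-type than to *Tsc2* KO. *Slc27a2*, an acyl-CoA synthetase for very long-chain fatty acids, had a log2 fold change of -1.57, *Ccdc85c* of -1.39, *Slfn9* of -1.38, *Efnb2* of -1.33 and *Bend5* of -1.31. *Bend5* did not pass without *Nprl2* KO library 1 or without *Tsc2* KO library 1 (edgeR adjusted p = 0.077 and 0.093).

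Some of the lowest ratios rested on very few reads. Of the members 13 are shorter than 200 nt, and 9 of these had no GFP+ library with 10 or more estimated counts. *Rn4.5s*, a small RNA gene of 175 nt, was listed at 599 and 3537 TPM in wild-type, 15.5 and 19.8 for *Nprl2* KO and 13.1 and 18.9 for *Tsc2* KO. Its estimated counts were 20 and 22 in wild-type against 17 and 26 for *Nprl2* KO and 16 and 25 for *Tsc2* KO. The counts of the genotypes overlapped although the TPM did not. In computing TPM, the length of a transcript was reduced by 170 and 174 nt in the wild-type libraries and by 178 to 228 nt in the KO libraries, which is about the whole length of this RNA. *Snord96a*, a snoRNA, had estimated counts of 100 and 79 in wild-type, against 69 and 102 for *Nprl2* KO and 76 and 69 for *Tsc2* KO, which overlap as well.

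The microRNA genes among the members were covered by even fewer reads. *Mir3072* had 3 and 6 estimated counts in the wild-type libraries and 0 in all KO libraries, *Mirlet7f-1* had 2 and 1 against 0, and *Mir19b-1* had 1 and 3 against 0, 1, 0 and 0. Libraries of this kind do not capture mature microRNAs, so these reads are of longer transcripts over the hairpin genes. A mature product of each of these 3 genes, from RefSeq (GRCm38.p6), is shown to identify it, with the seed, bases 2 to 8, in capitals. The 3 seeds differ. The hairpin of *Mir3072* lies in the block, that of *Mirlet7f-1* on chromosome 13 and that of *Mir19b-1* on chromosome 14.
mmu-miR-3072-3p (chr12:109747928-109747949, plus strand): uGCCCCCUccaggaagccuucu
mmu-let-7f-5p (chr13:48537889-48537910, minus strand): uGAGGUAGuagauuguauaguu
mmu-miR-19b-3p (chr14:115044358-115044380, plus strand): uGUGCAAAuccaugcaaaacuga

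The 24 lists of genes by pathway or cell type, written from general knowledge, held 10 members among their 379 genes at 3 TPM or more (2.64%), near the 2.74% of all genes at this level. None was in the lists for general, naive or formative pluripotency, cell cycle inhibitors, p53 targets, the amino acid response, the lysosome, cholesterol and fatty acid synthesis, glycolysis, Wnt targets, Polycomb-regulated developmental regulators, the germline, primitive endoderm, neural or mesendoderm markers, two-cell-like cells or the Y chromosome. The FoxO targets (22 genes) held *Foxo1*, the insulin and growth factor receptors and adaptors (26 genes) held *Pik3r1*, and autophagy (32 genes) held *Atg2b* and *Optn*. The early response list (25 genes) held *Dusp4* and *Spred1*, the imprinted genes (39) held *Mest* and *Kcnq1ot1*, and the histones (27) held *Hist1h1a* and *Hist1h2bk*. *Optn*, an autophagy receptor, was at 12.7 and 13.6 TPM in wild-type, with 9.51 and 8.83 for *Nprl2* KO and 9.903 and 9.97 for *Tsc2* KO, and rose from 7.07, 7.49 and 8.25 TPM on day 0 to 33.3, 38.96 and 35.96 on day 1 (log2 fold change 2.32, SE 0.10, edgeR adjusted p = 6.5e-13). *Mest*, a paternally expressed gene of the hydrolase family, was at 119 and 107 TPM in wild-type, with 69.4 and 62.97 for *Nprl2* KO and 80.98 and 74.4 for *Tsc2* KO.

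The genes of these lists went both ways during differentiation. Of 22 tested FoxO targets 11 were called higher and 8 lower on day 3, of 32 autophagy genes 8 were higher and 14 lower, and of 23 early response genes 16 were higher and 3 lower. Of 37 tested imprinted genes 19 were higher and 10 lower. The background on day 3 was 35.0% higher and 35.9% lower. The histone members had no call on day 3, with log2 differences of -0.53 for *Hist1h1a* and 0.28 for *Hist1h2bk* (edgeR adjusted p = 0.24 and 0.39). Another pair of histone members, *Hist1h2ad* and *Hist1h2ap*, shares 67.9% of the 31-base words of the shorter one.

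Promoters were searched for short motifs. The RefSeq table (GRCm38.p6) gave 300 bases, 250 before the start and 50 after it, for 226 of the 295 members and for 8574 genes at 3 TPM or more. Each motif was searched on both strands. CACGTG, the E-box read by Myc and Tfe factors, was in 10.2% of member promoters and 11.1% of all. CCAAT, read by NF-Y, was in 36.3% and 40.2%, TGACGTC, the core of the CRE, in 7.96% and 6.20%, TATAAA in 5.75% and 6.46%, and TGANTCA, the AP-1 site, in 3.54% and 4.23%. GTAAACA, a forkhead site, was in 1.77% and 2.45%, CTTTGAT, a Tcf/Lef site, in 2.21% and 2.46%, and TGATGCA, part of an Atf4 site, in 1.77% and 1.87%. CCGGAAG, an Ets site, was in 12.4% of member promoters against 20.5% of all, with 14.8% of 61 in the block and 11.6% of 164 elsewhere. The median number of CpG was 24 in members and 22 in all, and the median GC content was 63.0% and 61.3%. These shares were not tested.

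The 250 bases before the start of *Dicer1*, *Foxo1* and *Efnb2* are shown as examples of a member of the block, a transcription factor gene outside it and a gene of a surface ligand. They are given 5′ to 3′ along the gene's strand, from RefSeq on GRCm38.p6. Capitals mark CCAAT on either strand (ATTGG on the other) and, in *Efnb2*, TATAAA on the other strand (TTTATA). *Dicer1* held CCAAT at 1 place, *Foxo1* at 3 and *Efnb2* at 2.
*Dicer1* (chr12:104751953-104752202, minus strand): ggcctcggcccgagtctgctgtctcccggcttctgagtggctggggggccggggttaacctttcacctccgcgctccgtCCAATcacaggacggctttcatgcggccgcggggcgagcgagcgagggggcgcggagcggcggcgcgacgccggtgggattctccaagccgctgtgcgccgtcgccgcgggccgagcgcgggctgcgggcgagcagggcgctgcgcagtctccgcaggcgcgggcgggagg
*Foxo1* (chr3:52268087-52268336, plus strand): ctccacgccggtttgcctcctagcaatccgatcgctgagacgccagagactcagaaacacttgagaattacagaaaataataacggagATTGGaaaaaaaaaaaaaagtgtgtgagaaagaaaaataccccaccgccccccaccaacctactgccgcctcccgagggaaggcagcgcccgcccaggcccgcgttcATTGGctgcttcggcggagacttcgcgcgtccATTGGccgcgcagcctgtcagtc
*Efnb2* (chr8:8661243-8661492, minus strand): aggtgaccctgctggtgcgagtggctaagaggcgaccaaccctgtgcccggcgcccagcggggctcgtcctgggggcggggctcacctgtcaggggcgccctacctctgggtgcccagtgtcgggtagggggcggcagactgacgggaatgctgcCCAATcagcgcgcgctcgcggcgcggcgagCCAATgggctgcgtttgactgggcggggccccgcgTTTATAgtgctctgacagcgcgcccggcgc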

How the data were processed

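RNA-seq of 6 GFP+ libraries (2 each from wild-type, *Nprl2* KO and *Tsc2* KO mESCs) and 12 time-course libraries (3 each from days 0 to 3) was analysed. The authors deposited, per library and RefSeq transcript, estimated counts from kallisto 0.42.1 (version and the build mm10 per the submitters' processing notes) and the TPM computed from them, and a table of TPM per gene and library. Neither unit was normalized between libraries by the authors. The deposited DESeq2 comparisons (log2 fold change, p-value and adjusted p-value per gene) were not used. The methods of the paper describe stranded mRNA libraries for GFP+ cells, and the kallisto settings and the preparation of the time-course libraries are not given in the sources used here, so reads of overlapping or antisense genes may not be separated.

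The members were found in the table of TPM per gene. Estimated counts were summed per gene (33713 of 34079 transcripts matched through RefSeq and 192 through GENCODE, 174 left out, with 1.65% to 3.57% of counts) and rounded to whole numbers. Counts were tested with edgeR 4.0.16 in R 4.3.3 (TMM, filterByExpr, robust quasi-likelihood fits, two-sided, Benjamini-Hochberg over all genes tested, threshold 0.05), separately for the GFP+ and the time-course libraries. The SE is the absolute log2 fold change divided by the square root of the F statistic. Members without counts numbered 3. The fit was tested on simulated data with 200 changed genes, of which 194 were recovered for day 3 against day 0 (14092 genes) and 191 for *Tsc2* KO against *Nprl2* KO (13642 genes). False calls numbered 11 and 13. All changed genes had the same size of fold change, none had low counts, and the spread was set by hand. Recovery of smaller changes was therefore not tested.

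A count of 3, the most that a count of 0 allows, was 0.203 to 0.354 CPM, for counting error only. The members, the lists, the groups by function and the limits of the block on chromosome 12 were chosen with earlier results of these data known. Genes were named by a rule. It takes members in the lists, the 20 with the largest weaker fall, the 10 most abundant, the 10 largest rises and falls on day 3 without overlap, the 8 largest calls each way between the KOs, and 3 genes on either side of each threshold. Genes of the functional groups and of the block were named after their values were seen. The alternatives were DESeq2 1.42.0, upper-quartile normalization, other filters, the replicate number as a block, limma 3.58.1 on log2(TPM + 1) and log2(TPM + 0.1), other thresholds for membership, and leaving out each library. Leaving out the members of the block, leaving out members under 200 nt, and leaving out libraries from the day 0 comparison were added after seeing the data.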

Additional observations from a re-analysis of the deposited data

Results flagged for a closer look

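In the direct edgeR comparison of *Tsc2* KO with *Nprl2* KO, 12 members named in the text were called. The rule used the same libraries, so the calls are a description. As given above, *Atxn3*, *Ttc7b*, *Wdfy3* and *Bend5* lost the call with 1 library left out. Higher in *Tsc2* KO were *Ttc7b* (log2 fold change 0.40), *Atxn3* (0.40), *Hsp90aa1* (0.39) and *Wdfy3* (0.27). Lower in *Tsc2* KO were *Tmem121* (-2.35), *Myb* (-1.99), *Miip* (-1.63), *Slc27a2* (-1.57), *Ccdc85c* (-1.39), *Slfn9* (-1.38), *Efnb2* (-1.33) and *Bend5* (-1.31). All have both KO means under wild-type, as the rule required, so the difference between the KOs is one of size. *Hsp90aa1*, *Atxn3*, *Ttc7b*, *Tmem121* and *Ccdc85c* lie in the block on chromosome 12. The rule caps the level of each KO, so these differences lie within limits that it set. A cause was not tested.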

How the results depend on the processing

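Of 175 counts of members recomputed under alternatives, 164 were within 1.5 times the reported count and 11 moved further. The number of members was 119 with a fold of 1.5, 499 with a fold of 1.2, 173 with a wild-type mean of 10 TPM or more, and 295 to 503 with 1 library left out, the highest without wild-type library 2. With CPM in place of TPM it was 283, of which 260 were shared and 71 lay in the block. With 1 library left out, the members called higher were 108 to 116 on day 1, 117 to 126 on day 2 and 126 to 135 on day 3, and those called lower were 70 to 80, 63 to 75 and 69 to 76. The members with day 0 above all KO libraries, reported as 172, were 176 to 189. Leaving out a library can only keep or raise that count, so this range is no check of it. The members called higher in *Tsc2* KO than in *Nprl2* KO, reported as 4, were 2 with DESeq2, 7 without a filter on low counts, 1 without the members of the block, and 2 to 5 with 1 library left out. The members called lower, reported as 56, were 30 to 57 with 1 library left out, the lowest without *Tsc2* KO library 2. Leaving out a library reduces the samples, and for the other settings the cause was not tested. Of 158 results for single genes, 139 kept their direction and their side of the threshold under every alternative run, and of 2876 values 66 lost the call and 0 reversed.

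With the replicate block the members called higher in *Tsc2* KO were 8 and those called lower 73, and those higher and lower on day 3 were 131 and 72. Samples with the same number correlated between -0.11 and 0.13 in the time course, where 2 of 18 pairs were over 0.1, and between 0.085 and 0.16 in GFP+ cells, where 4 of 6 were. Every GFP+ library correlated best with libraries of its own number, a hint from the data and not from the design. The correlations are of deviations from the genotype mean. With 2 libraries per genotype these deviations mirror each other, so the 6 pairs are not independent. Since not every pair was over 0.1 and the sources used here do not say what a number marks, the numbers were not taken to pair the libraries.

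Each genotype has 2 libraries, which limits the test between the KOs. Short RNAs rest on few reads, with 9 of 13 under 10 estimated counts in every GFP+ library.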

Other observations

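The X chromosome had the next highest share of members after chromosome 12 (3.90%, against 3.24% on chromosome 10 and 2.74% over all chromosomes). Its 14 members included *Gpc3*, *Pola1*, *Hmgb3* and *Fhl1*. Their median ratio to wild-type was 0.697 for *Nprl2* KO and 0.639 for *Tsc2* KO. The *Tsc2* KO ratios ran from 0.338 to 0.743. The rule caps the ratios of members. Over all 359 X genes at 3 TPM or more, the median log2 ratio was -0.053 for *Nprl2* KO and -0.047 for *Tsc2* KO.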
